A study of Homo sapiens with 6 samples.

Results

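Ferroptosis is an iron-dependent form of cell death driven by peroxidation of polyunsaturated fatty acids in membrane phospholipids. A set of 10 genes that act on these lipids, or protect them through quinones, was described in U251 cells, an established human glioma line. The genes were taken by symbol, with 1 Ensembl identifier each, out of 61496 features in the deposited tables. They were the long-chain acyl-CoA synthetase genes ACSL1, ACSL3, ACSL4, ACSL5 and ACSL6, the acyltransferase gene LPCAT3, the quinone defense genes AIFM2 and DHODH, the tetrahydrobiopterin gene GCH1 and the porin gene VDAC2. All 10 passed the filter on low counts and were among the 27514 features tested.

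There were 6 libraries of ribosomal RNA-depleted total RNA, 3 from untreated control cells and 3 from cells exposed to sevoflurane (Sev), a volatile anesthetic, for 2 h. Both groups were cultures of the same line in the same serum-containing medium, and the labels do not say whether the libraries of a group came from separate cultures, so p-values measure only the spread between these libraries. The protocol in the labels names Sev at 1.7%, at 3.4% and at 5.1%, and assigns no concentration to a library. The legend of the published volcano plot of this comparison names 5.1% for the Sev-treated U251 cells. Library totals ran from 38624292 to 46318311 counts. Intervals and p-values rest on 3 libraries per group.

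Each acyl-CoA synthetase joins a fatty acid to coenzyme A, which is the step that commits it to lipid synthesis or oxidation. ACSL4 prefers polyunsaturated fatty acids such as arachidonic acid, and LPCAT3 places them into phospholipids, so the pair builds the substrate of ferroptosis. ACSL3 is known for activating monounsaturated fatty acids, which make membranes less open to peroxidation. On the defense side, AIFM2 encodes FSP1, which reduces coenzyme Q at the plasma membrane, DHODH reduces it in the inner mitochondrial membrane as part of pyrimidine synthesis, and GCH1 makes the first committed step to tetrahydrobiopterin, a radical-trapping cofactor. VDAC2 is a channel of the outer mitochondrial membrane and a target of the ferroptosis inducer erastin.

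In Sev-treated cells VDAC2, ACSL1 and AIFM2 were higher, DHODH and ACSL3 were lower, and the other 5 genes did not pass the test (edgeR quasi-likelihood test, Benjamini-Hochberg adjustment). Levels are given as CPM, which are counts scaled to a common library size with TMM factors, and in bulk RNA fewer cells that transcribe a gene and less RNA per cell cannot be told apart. DHODH showed the largest change of the 10 in this fit, to 0.602 of the control level. With an adjusted p-value under 0.05, 5 of the 10 genes (50%) were called, 3 higher and 2 lower, against 43.7% of all 27514 tested features, so the share was near the background. Of all features 22.1% were higher and 21.5% were lower (6094 and 5920). This balance depended on the scaling, with 4665 higher and 7502 lower when library totals were the only scaling and 3676 higher and 6709 lower on log2(FPKM + 1). The higher count fell from 3 to 1 without control replicate 1, control replicate 3, Sev replicate 1 or Sev replicate 3, and also with library totals as the only scaling, with a replicate block and with FPKM in place of counts. None of the 10 passed the study's fold threshold, which takes a log2 fold change above 1 or below −1 and p under 0.05 before adjustment and which 23.5% of all features passed. The ranges of the normalized counts did not overlap between the groups for 6 of the 10 genes, against 56.5% of all features. The median log2 fold change of the 10 genes was 0.16, against −0.0056 over all features.

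**Figure D1:**
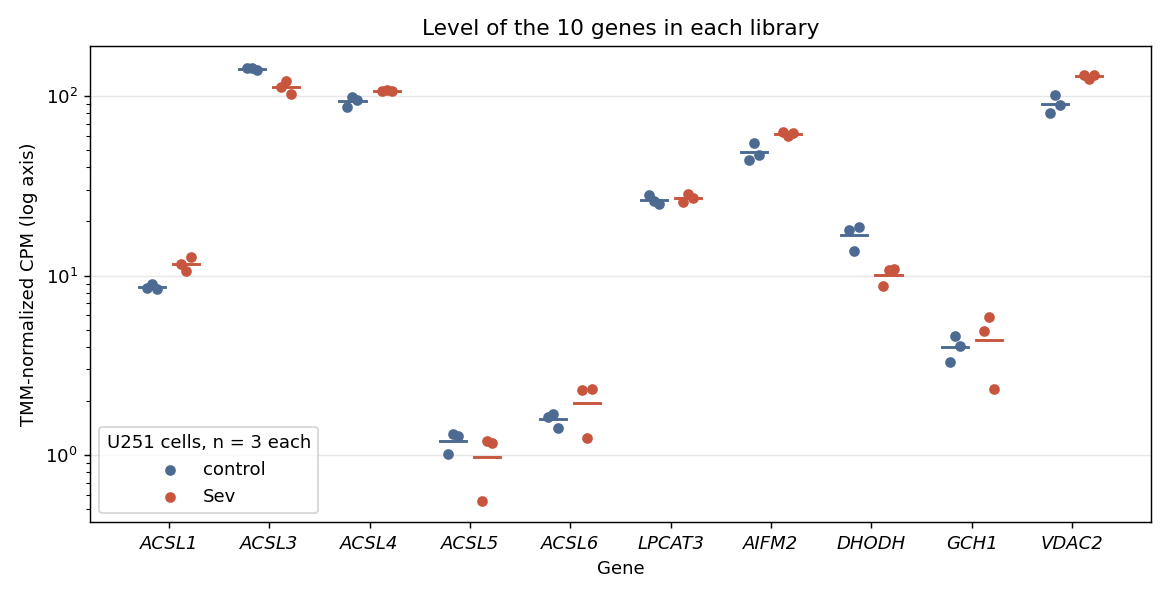
TMM-normalized CPM (log axis) of the 10 genes in each of 3 control and 3 Sev libraries, with points for libraries and bars for group means. The Sev points of VDAC2, AIFM2, ACSL1 and ACSL4 lie above all control points, those of ACSL3 and DHODH lie below, and ACSL5, ACSL6, LPCAT3 and GCH1 overlap.

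The levels of the 10 genes differed by up to 366-fold within control cells. Levels between genes were compared as FPKM, which is scaled by gene length. For ACSL6, the lowest, counts and FPKM imply a length of 21523 to 22901 bases, against 13013 annotated exon bases. For VDAC2, the highest, they imply 3457 to 3486 against 2827, so the ratio depends on lengths whose source is not given. In control cells the order was VDAC2 (27.2 ± 2.55 FPKM, SD, n = 3), ACSL3 (16.7 ± 0.448), ACSL4 (12.1 ± 0.579), AIFM2 (8.04 ± 0.768), LPCAT3 (4.79 ± 0.384), DHODH (2.05 ± 0.363), ACSL1 (1.16 ± 0.0326), GCH1 (1.14 ± 0.163), ACSL5 (0.239 ± 0.0262) and ACSL6 (0.0743 ± 0.00839). The only neighbours in this order whose libraries overlapped were ACSL1 and GCH1. In Sev-treated cells ACSL4 (12.6 ± 0.315 FPKM) and ACSL3 (11.9 ± 0.631 FPKM) overlapped and shared the second place. AIFM2 (9.28 ± 0.511) and LPCAT3 (4.44 ± 0.202) came next. After them came ACSL1 (1.42 ± 0.174), GCH1 (1.12 ± 0.448) and DHODH (1.11 ± 0.137), with ACSL1 overlapping GCH1 and GCH1 overlapping DHODH. ACSL5 (0.173 ± 0.0639) and ACSL6 (0.0841 ± 0.0283) also overlapped in Sev-treated cells.

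Levels of cell type marker genes were also read in the same data. Summed over 11 glial and glioma markers, the normalized level was 7956 to 8889 CPM in control and 8999.5 to 9518 CPM in Sev libraries, with VIM at 5123 CPM or more in every library. VIM alone thus made up most of each sum, which says little about the other markers. Of the 10 of these markers that were tested, CD44 rose and SOX2, S100B and OLIG2 fell (40%, against 43.7% of all features). Summed CPM over the 5 immune markers was at most 5.24, over the 4 epithelial markers at most 0.473, over the 3 endothelial markers at most 10.4, over the 2 erythroid markers at most 1.67, and over the 5 neuronal markers between 30.1 and 37.5. AIF1, CD3E and MS4A1 were at 0 counts in all libraries. Of 5 neuronal markers tested, SYT1 rose and GAD1 fell (40%, against 43.7% of all features). Of 3 endothelial markers tested, PECAM1 rose (33.3%). HBA1 was the only erythroid marker tested and rose by 3.31 on the log2 scale. The summed erythroid level was 0.151 to 0.185 CPM in control and 1.38 to 1.67 CPM in Sev libraries. The part of these markers in the results on the 10 genes was not tested.

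Among the acyl-CoA synthetases, the ACSL3 mRNA fell and ACSL1 rose, while ACSL4 was higher by an amount that missed the adjusted limit. ACSL3 (ENSG00000123983, chromosome 2, 222860934 to 222944639, GRCh38) was at 143, 144 and 139 CPM in the control libraries and at 112, 122 and 102 CPM in the Sev libraries. Every Sev library was below every control library, and the log2 fold change was −0.34 (standard error 0.085, 95% interval −0.54 to −0.14, adjusted p = 0.0138). Leaving out any 1 of the 6 libraries kept this call, with log2 fold changes from −0.40 to −0.28.

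ACSL4 (ENSG00000068366, chromosome X, 109624244 to 109733403) was at 86.6, 99.1 and 94.4 CPM in control and at 107, 108 and 106 CPM in Sev libraries. The groups did not overlap in CPM, whereas in FPKM control replicate 2 (12.64) lay above Sev replicate 1 (12.58) and Sev replicate 2 (12.28). The log2 fold change was 0.20 (standard error 0.079, 95% interval 0.015 to 0.38, adjusted p = 0.0761). It was 0.056 when libraries were scaled by their totals only.

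ACSL1 (ENSG00000151726, chromosome 4, 184755595 to 184826818), an isoform with a broad range of long-chain substrates, was at 8.56, 8.93 and 8.36 CPM in control and at 11.5, 10.6 and 12.7 CPM in Sev libraries. All Sev libraries were higher than all control libraries, by 0.43 on the log2 scale (standard error 0.12, 95% interval 0.14 to 0.72, adjusted p = 0.0246). The call was lost without control replicate 1 (adjusted p = 0.0643), control replicate 3 (adjusted p = 0.0860), Sev replicate 1 (adjusted p = 0.0687) or Sev replicate 3 (adjusted p = 0.0684), and with library totals as the only scaling (log2 fold change 0.29, adjusted p = 0.124).

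ACSL5 and ACSL6 had the lowest levels of the family. ACSL5 (ENSG00000197142, chromosome 10), an isoform of mitochondria and the endoplasmic reticulum, had 43, 52 and 62 counts in control and 21, 45 and 46 counts in Sev libraries. Sev replicate 1 was the lowest, the groups overlapped in CPM, and the log2 fold change of −0.30 had an interval from −1.05 to 0.44 (adjusted p = 0.474). Exons of ACSL5 share 5.29% of their bases with an antisense transcript, AL157786.1, and 3.40% with ZDHHC6 on the opposite strand. ACSL6 (ENSG00000164398, chromosome 5), known from brain, had 69, 67 and 69 counts in control and 87, 47 and 92 counts in Sev libraries. Its Sev libraries lay on both sides of the controls, with a log2 fold change of 0.31 (95% interval −0.32 to 0.94, adjusted p = 0.384). On the same strand, 15.4% of the exon bases of ACSL6 are shared with AC026398.1, which had 0 to 2 counts in control and 0 to 16 counts in Sev libraries.

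The shares of the 5 isoforms within a library do not depend on how libraries are scaled to each other. ACSL3 made up 57.0%, 54.0% and 54.3% of the summed ACSL FPKM in the control libraries and 45.7%, 47.6% and 43.2% in the Sev libraries, a mean difference of −9.61 percentage points. ACSL4 made up 38.2%, 41.1% and 40.9% in control and 48.1%, 46.7% and 49.5% in Sev libraries, a mean difference of 8.08 points. ACSL1 had a mean share of 3.84% ± 0.0796 (SD, n = 3) in control and 5.42% ± 0.687 in Sev libraries. These 3 shares did not overlap between the groups, whereas ACSL5 and ACSL6 stayed under 1% and overlapped. The ratio of ACSL4 to ACSL3 was 0.726 in control and 1.06 in Sev libraries as geometric means, a difference of 0.54 on the log2 scale. For each of the 4 measures without overlap the two-sided exact permutation test gave p = 0.1, the smallest p that 3 libraries against 3 allow, and 0.14 after adjustment over the 7 shares and ratios tested.

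**Figure D2:**
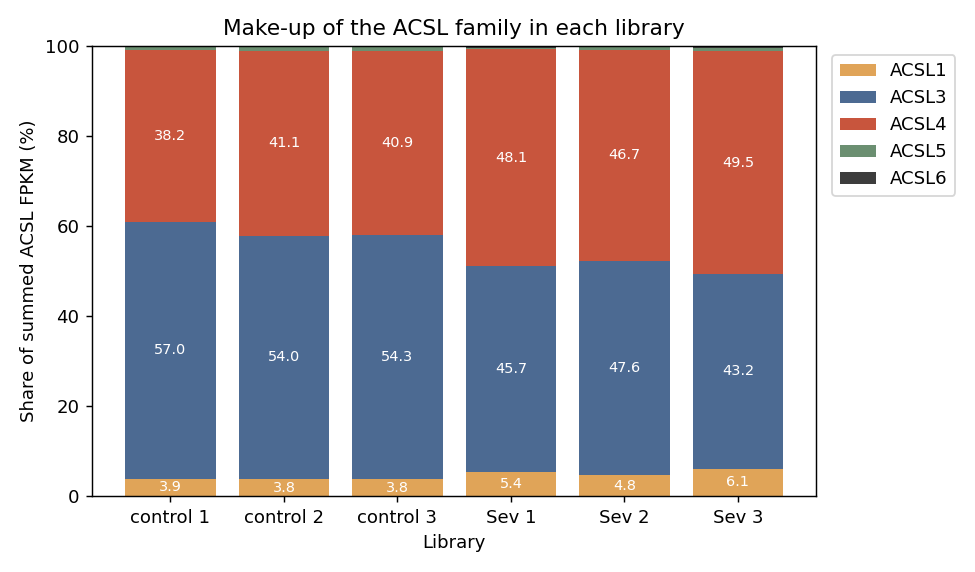
Share of each ACSL gene in the summed ACSL FPKM of a library (%), with 1 bar for each of the 3 control and 3 Sev libraries. ACSL3 holds the larger part in every control library and ACSL4 does in 2 of the 3 Sev libraries, with 46.7% ACSL4 against 47.6% ACSL3 in Sev replicate 2.

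Other genes of fatty acid uptake and activation were called at about the background rate. Of 36 such genes (other acyl-CoA synthetases, fatty acid transport and binding proteins, and thioesterases), 28 were tested, 4 were higher and 9 were lower, with a median log2 fold change of −0.23. The share called was 46.4%, near the 43.7% of all features. Without control replicate 3 the counts were 1 higher and 6 lower, without Sev replicate 1 they were 2 and 6, without control replicate 1 they were 3 and 6, and without Sev replicate 3 they were 2 and 8. SLC27A1, a fatty acid transporter with acyl-CoA synthetase activity, fell from 52.9 ± 10.2 to 25.3 ± 4.0 CPM (SD, n = 3, log2 fold change −1.07, adjusted p = 0.00203). ACSM6, a gene of the medium-chain acyl-CoA synthetase family, fell from 1.90 ± 0.0921 to 0.917 ± 0.292 CPM. ACOT7, a thioesterase that reverses the activation of long-chain fatty acids, rose from 83.4 ± 11.4 to 124 ± 8.29 CPM (log2 fold change 0.57). Its exons share 20.3% of their bases with AL031848.2 on the opposite strand. ACBD3, an acyl-CoA-binding-domain protein of the Golgi, rose by 0.39 on the log2 scale (adjusted p = 0.0117), a call lost without control replicate 3 (adjusted p = 0.0546) or Sev replicate 1 (adjusted p = 0.0536).

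LPCAT3 (ENSG00000111684, chromosome 12, 6976186 to 7018510) showed no difference larger than the replicate spread. It was at 28.2, 26.1 and 24.9 CPM in control and at 25.7, 28.4 and 27.2 CPM in Sev libraries. The groups overlapped almost entirely, and the log2 fold change of 0.037 had an interval from −0.18 to 0.26 (adjusted p = 0.777). Its sign turned with the scaling, to −0.11 with library totals only. On GENCODE 29, 65.6% of the exon bases of LPCAT3 lie under exons of EMG1, a ribosome biogenesis gene on the opposite strand, which had a log2 fold change of 0.51 (adjusted p = 0.00634). The strand setting of the counting is not given in the sources used here, so reads of the shared stretch may have been lost or assigned to either gene, and the part of EMG1 in the LPCAT3 value was not tested.

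Of 25 other phospholipid remodelling genes, all of them tested, 2 were higher and 5 were lower (28%, against 43.7% of all features). PLA2G4C, a phospholipase A2 that releases fatty acids from phospholipids, rose by 2.39 on the log2 scale, from 1.37 ± 0.0216 to 7.22 ± 0.884 CPM (adjusted p = 9.98e-05). LPCAT2, an acyltransferase that also makes platelet-activating factor, rose from 86.0 ± 7.88 to 135 ± 7.93 CPM (log2 fold change 0.65). MBOAT1 and LPCAT4, lysophospholipid acyltransferases, fell by 1.23 and 1.06 on the log2 scale (adjusted p = 0.000609 and 0.000454). The median of the 25 genes was −0.014.

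Genes that supply these fatty acids or package them into ether lipids were called in 13.6% and 14.3% of those tested, against 43.7% of all features. Of 22 tested genes of fatty acid synthesis, desaturation and elongation, 1 was higher and 2 were lower. The lower count was 1 when Sev replicate 1 or either of control replicates 1 and 3 was left out, and the higher count was 2 without control replicate 2, Sev replicate 2 or Sev replicate 3. With library totals as the only scaling, or on log2(FPKM + 1), the lower count was 6. FASN, the fatty acid synthase, rose from 819 ± 52.4 to 1185 ± 37.9 CPM (log2 fold change 0.53, adjusted p = 0.00199), ACACB, the acetyl-CoA carboxylase of mitochondria, fell from 28.5 ± 3.68 to 16.5 ± 2.16 CPM, and SCD5, a desaturase that makes monounsaturated fatty acids, fell by 0.30 on the log2 scale. The SCD5 call (adjusted p = 0.0193) was lost without control replicate 1 (adjusted p = 0.0536), control replicate 3 (adjusted p = 0.0752) or Sev replicate 1 (adjusted p = 0.0764). Of 14 ether lipid genes, 0 were higher and 2 were lower, against 3 higher without Sev replicate 2, 1 higher without Sev replicate 3, 3 lower without control replicate 1 and 1 lower without control replicate 2. On log2(FPKM + 1), 4 were lower. CEPT1, which attaches choline or ethanolamine head groups, fell from 22.2 ± 4.4 to 10.0 ± 0.769 CPM. PEX3, needed to form peroxisomes, fell by 0.59 on the log2 scale, and its call (adjusted p = 0.0223) was lost without control replicate 2 (adjusted p = 0.0684).

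Of 16 lipid peroxidation genes only 8 passed the filter on low counts, of which 3 were higher and 2 were lower (62.5%, against 43.7% of all features). The higher count fell to 1 without control replicate 3 or with library totals as the only scaling, and to 0 on log2(FPKM + 1). ALOX12, an arachidonate lipoxygenase, fell from 3.82 ± 0.237 to 1.47 ± 0.303 CPM, and 18.8% of its exon bases lie under an antisense gene. SAT1, a polyamine acetyltransferase, fell from 109 ± 18.1 to 72.7 ± 9.69 CPM. POR, the cytochrome P450 reductase, and PEBP1, a binding partner of lipoxygenases, rose by 0.31 and 0.26 on the log2 scale (adjusted p = 0.0210 and 0.0244). The POR call was lost without control replicate 1, 2 or 3 (adjusted p = 0.0718, 0.0563 and 0.0579). The PEBP1 call was lost in every fit without 1 library except that without control replicate 2, with adjusted p from 0.0449 to 0.0710 over the 6 fits.

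On the quinone side, the 2 reductase genes moved in opposite directions. DHODH (ENSG00000102967, chromosome 16, 72008588 to 72027664) was at 18.0, 13.7 and 18.6 CPM in control and at 8.73, 10.7 and 10.8 CPM in Sev libraries. Control replicate 2 was the lowest control library and still lay above all Sev libraries. DHODH fell by 0.73 on the log2 scale (standard error 0.16, 95% interval −1.10 to −0.36, adjusted p = 0.00795), and leaving out any 1 of the 6 libraries kept the call.

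AIFM2 (ENSG00000042286, chromosome 10, 70098223 to 70132934) was at 43.9, 54.7 and 47.1 CPM in control and at 62.7, 60.1 and 62.6 CPM in Sev libraries. All Sev libraries were higher in CPM, whereas in FPKM control replicate 2 (8.91) lay above Sev replicate 2 (8.71). The log2 fold change was 0.35 (standard error 0.099, 95% interval 0.12 to 0.58, adjusted p = 0.0240). The call was lost without control replicate 1 (adjusted p = 0.0791), control replicate 3 (adjusted p = 0.0908), Sev replicate 1 (adjusted p = 0.0811) or Sev replicate 3 (adjusted p = 0.0604). It was also lost when libraries were scaled by their totals only (log2 fold change 0.21, adjusted p = 0.116), a scaling that moved the median of all features to −0.15.

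**Figure D3:**
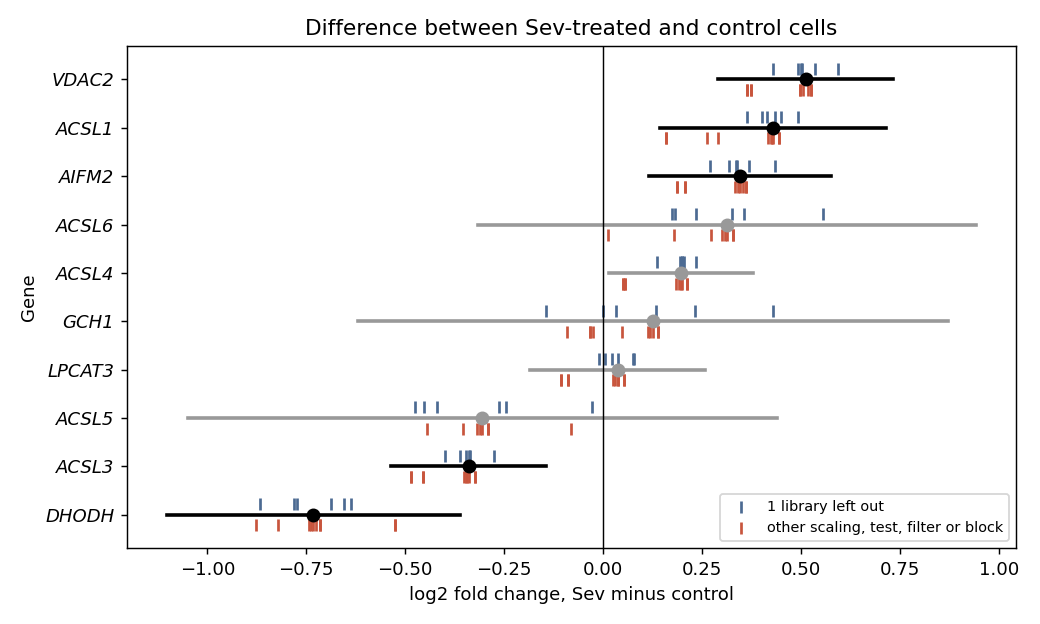
Log2 fold change (Sev minus control) of the 10 genes, with the estimate and 95% interval in black where the adjusted p-value was under 0.05 and in grey elsewhere. Blue ticks give the estimates with 1 library left out and red ticks the other alternatives, and only LPCAT3 and GCH1 have ticks on both sides of 0.

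Genes that make coenzyme Q, the shared substrate of AIFM2 and DHODH, were called at a rate near the background. Of 20 genes of coenzyme Q synthesis and quinone reduction, all of them tested, 5 were higher and 5 were lower (50%, against 43.7% of all features), with a median log2 fold change of −0.075. The higher count fell to 3 without Sev replicate 1. PPTC7, a mitochondrial phosphatase linked to coenzyme Q synthesis, rose by 1.52 on the log2 scale, from 32.5 ± 1.20 to 93.0 ± 11.7 CPM (adjusted p = 0.000105). COQ9, a lipid-binding subunit of the synthesis complex, fell from 49.4 ± 12.2 to 22.5 ± 3.78 CPM (log2 fold change −1.13, adjusted p = 0.00353), and COQ5, a methyltransferase of the same pathway, fell from 13.2 ± 1.65 to 7.30 ± 0.402 CPM.

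DHODH catalyses a middle step of pyrimidine synthesis, and the other genes of that pathway gave 5 higher and 2 lower of 15 tested (46.7%, against 43.7% of all features). The higher count fell to 3 without control replicate 3, Sev replicate 1 or Sev replicate 3. CAD, which carries the steps before DHODH, fell from 145 ± 2.54 to 110 ± 8.01 CPM (log2 fold change −0.41, adjusted p = 0.00509). UMPS, which carries the steps after it and was singled out once its values were seen, was at 27.4 ± 1.29 CPM in control and 22.8 ± 3.81 CPM in Sev libraries (log2 fold change −0.27, adjusted p = 0.149). CTPS2, a CTP synthase, fell by 0.80 on the log2 scale. Its paralog CTPS1 rose from 97.9 ± 18.2 to 154 ± 13 CPM, and UCK1, a kinase that salvages uridine and cytidine, rose from 19.7 ± 0.848 to 36.4 ± 0.395 CPM (log2 fold change 0.88, adjusted p = 0.000299).

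GCH1 (ENSG00000131979, chromosome 14, 54842008 to 54902852) was expressed at a low level and varied most in the Sev group. It had 140, 182 and 197 counts in control and 184, 220 and 92 counts in Sev libraries, or 3.31, 4.59 and 4.06 CPM against 4.88, 5.86 and 2.32 CPM. Sev replicates 1 and 2 lay above all control libraries and Sev replicate 3 below them. The log2 fold change of 0.13 had an interval from −0.62 to 0.87 (adjusted p = 0.777). It was 0.43 without Sev replicate 3 and −0.14 without Sev replicate 2. Of 9 other tetrahydrobiopterin genes, 3 were higher and 0 were lower (33.3%, against 43.7% of all features). Leaving out any 1 of the 6 libraries reduced the higher count to 1, and without control replicate 1 there was 1 lower. SPR, sepiapterin reductase, which makes the last step of synthesis, rose from 11.2 ± 1.49 to 17.3 ± 0.616 CPM (log2 fold change 0.63, adjusted p = 0.00642). QDPR, which recycles the cofactor, had a log2 fold change of 0.32 (adjusted p = 0.0442), a call lost in each of the 6 fits without 1 library (adjusted p from 0.0578 to 0.130). GCHFR, the feedback regulator of GCH1, was at 0.289 ± 0.0388 CPM in control and 0.304 ± 0.0567 CPM in Sev libraries, and 75.2% of its exon bases lie under DNAJC17 on the opposite strand.

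VDAC2 (ENSG00000165637, chromosome 10, 75210154 to 75231448) was the most abundant of the 10 genes by FPKM and had the smallest p-value among them. It was at 80.9, 101 and 88.7 CPM in control and at 130.1, 125 and 131 CPM in Sev libraries. The groups did not overlap, and the log2 fold change was 0.51 (standard error 0.096, 95% interval 0.29 to 0.73, adjusted p = 0.00415). Processed copies of VDAC2 elsewhere in the genome could take or give reads. The 5 annotated copies held between 14.1% and 16.2% of the counts summed over VDAC2 and its copies, most of them in VDAC2P5 (chromosome 2, 65205108 to 65205988), whose log2 fold change was 0.60 (adjusted p = 0.00412). VDAC2P1 (chromosome 21, 16094415 to 16095372) went the other way, with a log2 fold change of −0.60 (adjusted p = 0.0275). With all copies added to VDAC2 the log2 fold change was 0.50.

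The other porins did not pass the test. VDAC1 was at 177 ± 19.4 CPM in control and 225 ± 30.1 CPM in Sev libraries (log2 fold change 0.34, adjusted p = 0.0537), a call that was gained without Sev replicate 3 (adjusted p = 0.0248). VDAC1 also passed with DESeq2 size factors (adjusted p = 0.0472) and with the DESeq2 Wald test (adjusted p = 0.0373). VDAC3 was at 77.4 ± 7.04 and 70.6 ± 4.94 CPM (log2 fold change −0.13, adjusted p = 0.299). VDAC2 held 28.0%, 29.4% and 26.4% of the summed FPKM of the 3 porins in control and 30.8%, 31.4% and 34.8% in Sev libraries, a mean difference of 4.39 percentage points (two-sided exact permutation p = 0.1, the smallest possible, and 0.14 after adjustment over the 7 shares and ratios tested). Of 16 genes of porins and their partners, 5 were higher and 1 was lower (37.5%, against 43.7% of all features). The lower count was 2 without control replicate 1 and 4 with library totals as the only scaling. PPIF, the cyclophilin of the mitochondrial matrix, rose from 75.8 ± 7.92 to 150 ± 18.9 CPM (log2 fold change 0.98), and NEDD4, a ubiquitin ligase known to target VDAC2 and VDAC3, rose from 96.2 ± 10.6 to 168 ± 15.9 CPM (log2 fold change 0.81). HK2, a hexokinase that binds porins, fell from 92.9 ± 17.1 to 47.6 ± 1.69 CPM (log2 fold change −0.96, adjusted p = 0.00110).

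**Figure D4:**
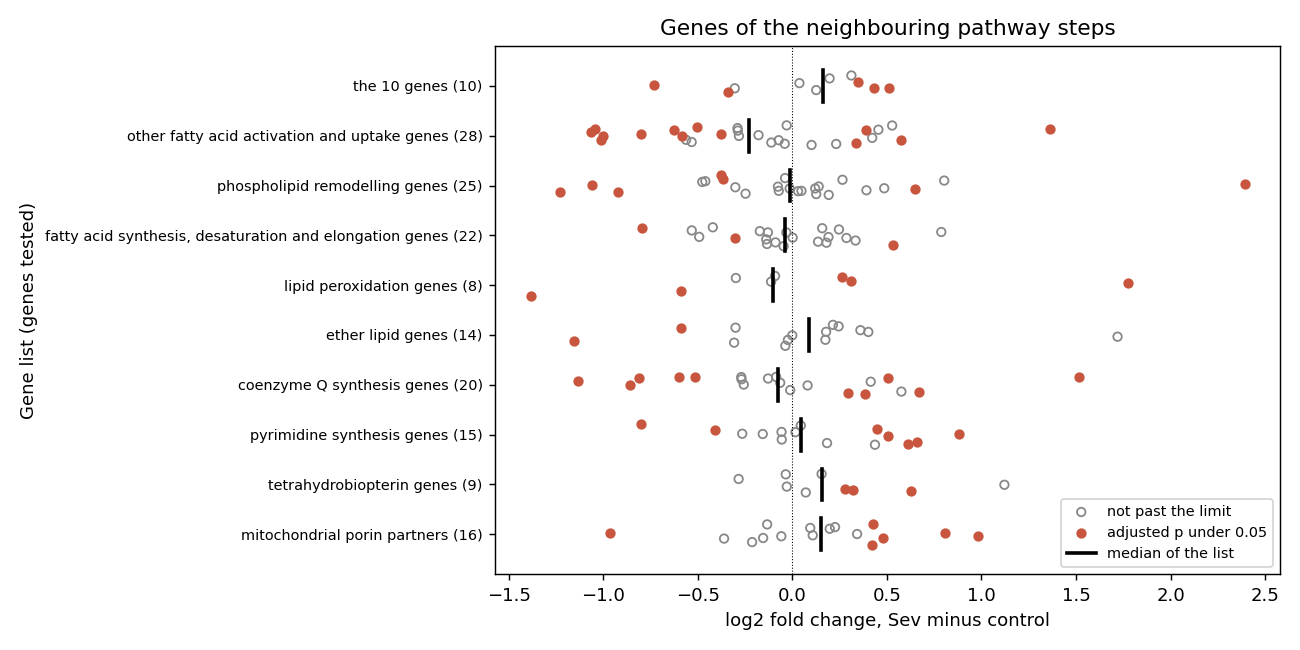
Log2 fold change (Sev minus control) of each tested gene in 9 lists of neighbouring pathway steps and in the 10 genes, with filled points where the adjusted p-value was under 0.05 and a bar at each list's median. The medians lie between −0.23 and 0.16, and only the ether lipid list (0 higher) and the tetrahydrobiopterin list (0 lower) had calls in 1 direction alone.

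Promoters of 4 of the 5 called genes are shown, 2 that rose and 2 that fell, to set the sequence around their start sites side by side. ACSL1, which was called higher and has several windows, is not shown. The windows run from 250 bases before to 50 bases after a RefSeq start site on GRCh38.p14, 5′ to 3′ on the gene's strand. RefSeq windows were found for 9 of the 10 genes, 21 windows in all, and GCH1 had no entry in the promoter set used here. Both strands were searched for 4 motifs, whose matches are in capitals. CACGTG, the E-box, was found in 2 of the 21 windows, 1 of DHODH and 1 of VDAC2, and in 7.26% of all 35116 windows. TGACNNNGC, the core of the antioxidant response element, was found in 5 of the 21 windows (1 each of ACSL1, ACSL5 and AIFM2, and 2 overlapping windows of ACSL6 that hold the same site) and in 13.3% of all windows. TGATGNAAN, the composite site of C/EBP and ATF factors, and TGACGTCA, the cAMP response element, were found in 0 of the 21 windows, and in 3.61% and 1.85% of all windows. The matches are letters in a window and were not tested for binding.
DHODH, lower in Sev, chr16:72008494-72008793, plus strand, with the E-box starting 159 bases before the start site: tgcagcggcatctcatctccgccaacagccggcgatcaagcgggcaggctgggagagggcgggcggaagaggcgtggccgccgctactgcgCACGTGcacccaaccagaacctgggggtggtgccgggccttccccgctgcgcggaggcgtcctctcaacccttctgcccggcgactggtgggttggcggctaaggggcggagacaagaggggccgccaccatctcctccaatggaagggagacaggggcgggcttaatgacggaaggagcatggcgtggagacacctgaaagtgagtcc
ACSL3, lower in Sev, chr2:222860786-222861085, plus strand, with no match: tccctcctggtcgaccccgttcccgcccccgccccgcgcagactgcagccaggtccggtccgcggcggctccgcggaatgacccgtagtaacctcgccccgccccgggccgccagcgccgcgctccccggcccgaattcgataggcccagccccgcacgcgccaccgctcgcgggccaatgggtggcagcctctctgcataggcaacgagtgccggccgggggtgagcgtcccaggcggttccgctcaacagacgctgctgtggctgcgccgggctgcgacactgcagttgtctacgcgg
VDAC2, higher in Sev, chr10:75210546-75210845, plus strand, the one of its 2 windows with an E-box, which starts 100 bases before the start site: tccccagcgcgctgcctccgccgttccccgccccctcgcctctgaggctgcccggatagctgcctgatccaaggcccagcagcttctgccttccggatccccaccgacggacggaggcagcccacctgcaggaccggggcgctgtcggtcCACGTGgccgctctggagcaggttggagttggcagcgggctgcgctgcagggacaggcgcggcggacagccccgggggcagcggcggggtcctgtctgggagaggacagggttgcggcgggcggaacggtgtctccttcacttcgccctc
AIFM2, higher in Sev, chr10:70132776-70133075, minus strand, with the antioxidant response element core on the opposite strand, starting 22 bases before the start site: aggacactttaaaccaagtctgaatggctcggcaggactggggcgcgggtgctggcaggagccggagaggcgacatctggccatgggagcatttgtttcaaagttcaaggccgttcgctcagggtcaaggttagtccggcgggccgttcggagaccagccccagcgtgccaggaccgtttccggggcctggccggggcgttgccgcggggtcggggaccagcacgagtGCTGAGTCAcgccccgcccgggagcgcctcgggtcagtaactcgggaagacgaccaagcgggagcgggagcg
GC content of these windows was 67.7% for DHODH, 74% for ACSL3, 72.7% for VDAC2 and 67% for AIFM2, against a median of 58.7% over all windows. The VDAC2 window that is not shown had 60.7%.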

How the data were processed

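RNA of U251 cells, from 3 control and 3 Sev libraries, was sequenced by the authors after ribosomal RNA depletion, with a strand-specific library kit. The authors deposited raw counts per gene, and FPKM values, which correct for gene length and for library size, whose computation is not given in the sources used here. The submitters' processing notes name bcl2fastq 2.19, featureCounts and the build hg18, and the aligner, annotation and strand setting are not given in the sources used here. Of 60564 Ensembl identifiers, 60295 matched a symbol. Gene positions were joined by identifier from GENCODE 29 (GRCh38), and promoters came from RefSeq (GRCh38.p14).

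Counts were filtered with filterByExpr, normalized by TMM and tested in R 4.3.3 with edgeR 4.0.16 (glmQLFit and glmQLFTest) with no covariate. The Benjamini-Hochberg adjustment covered all 27514 tested features, with a limit of 0.05. TMM factors were 1.03 to 1.08 in control and 0.918 to 0.988 in Sev libraries. Shares and ratios of FPKM were compared by a two-sided exact permutation test (scipy 1.17.1). The fit was run on simulated counts with 200 changed genes, evenly up and down, against 12014 features called in the data. It therefore did not test the scaling under so many changes, and no result rests on it.

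The 10 genes and all lists were chosen with earlier results of these data known. Named were the 10 genes, VDAC1, VDAC3, GCHFR, genes overlapping the 10 genes and their copies, and from each list the 2 called genes of largest change in each direction with a mean of at least 1 CPM in a group, of which 1 is not reported here. Marker genes, and UMPS, chosen after its values were seen, fall outside this rule. Alternatives were other size factors (DESeq2 1.42.0) or library totals only, the DESeq2 Wald test, no filter, a minimum of 10 counts per library, a replicate block, 1 library left out, limma 3.58.1 with a pseudocount of 1 or 0.1 on the FPKM of features reaching 0.5 in 3 libraries, and of 1 on all features, copies added to a gene, and counts for shares. Replicates differed by more than counting noise (chi-square per gene of 39.8 or more over 15608 genes), so each library counted once.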

Additional observations from a re-analysis of the deposited data

How the results depend on the processing

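DHODH, ACSL3 and VDAC2 kept their direction and call under all 16 alternatives, with log2 fold changes from −0.88 to −0.53, from −0.48 to −0.28 and from 0.36 to 0.59. ACSL1 and AIFM2 stayed higher but lost the call in 9 and 10 of the 16. Of the 30 called list genes that the naming rule took, 24 kept the call under all 15 of theirs, and ACBD3, SCD5, POR, PEBP1, PEX3 and QDPR did not. VDAC1 passed with DESeq2 size factors, the DESeq2 Wald test and without Sev replicate 3, and VDAC3 with both filtered FPKM fits. Where values changed, the cause was not tested, and 3 libraries a group limit what can be told. Library totals alone moved the median of all features to −0.15, log2(FPKM + 1) to −0.11 and log2(FPKM + 0.1) to −0.17.

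Among genes without a call, LPCAT3, GCH1 and GCHFR changed sign. LPCAT3 turned to −0.11 with library totals, −0.0095 without control replicate 3 (range −0.0095 to 0.077 over left-out libraries), −0.088 with log2(FPKM + 1), filtered or not, and −0.11 with log2(FPKM + 0.1). GCH1 turned to −0.025 with library totals, −4.93e-05 without control replicate 1, −0.14 without Sev replicate 2 (range −0.14 to 0.43), −0.033 with log2(FPKM + 1), filtered or not, and −0.090 with log2(FPKM + 0.1). GCHFR turned to −0.067 with library totals, −0.011 with unfiltered log2(FPKM + 1), and ranged from −0.024 to 0.22 over left-out libraries.

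Of the 10 genes, 1 was called higher with library totals, the replicate block and each FPKM fit, and 1 to 3 higher and 2 lower without 1 library. With the replicate number as a block, 5228 features were higher and 5021 lower, VDAC2 (0.52, adjusted p = 0.0144), DHODH (adjusted p = 0.0228) and ACSL3 (adjusted p = 0.0291) kept the call, and AIFM2 (adjusted p = 0.0516) and ACSL1 (adjusted p = 0.0668) did not. Same-numbered libraries correlated at −0.0072, 0.0035 and 0.027, and differently numbered ones at −0.038 to 0.032. With 3 libraries a group, these values cannot tell whether same-numbered samples were paired. Past the fold threshold, 1691 features were higher and 2148 lower with at least 10 counts per library, 579 and 690 with log2(FPKM + 1), 579 and 691 with it unfiltered, and 1476 higher with log2(FPKM + 0.1). At the adjusted limit 4665 features were higher and 7502 lower with library totals, 3676 and 6709 with log2(FPKM + 1), 3623 and 6530 with log2(FPKM + 0.1), and 4542 and 6814 with unfiltered log2(FPKM + 1). Without 1 library 4780 to 5709 features were higher and 4438 to 5521 lower, and 3207 to 3501 and 2989 to 3554 passed the fold threshold.

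With library totals, calls were 6 lower in fatty acid synthesis, 1 higher in lipid peroxidation, 3 higher in coenzyme Q, 3 higher in pyrimidine synthesis, 1 higher and 1 lower in tetrahydrobiopterin, and 4 lower among porin partners. The DESeq2 Wald test gave 1 higher in ether lipids, and no filter gave 1 higher in tetrahydrobiopterin. The replicate block gave 1 lower in fatty acid synthesis, 2 higher and 1 lower in ether lipids, and 1 higher in tetrahydrobiopterin. With log2(FPKM + 1) there were 2 higher in fatty acid activation, 6 lower in synthesis, 0 higher in peroxidation, 4 lower in ether lipids, 3 higher in coenzyme Q and in pyrimidine synthesis, 1 higher and 1 lower in tetrahydrobiopterin, and 5 lower among porin partners. With log2(FPKM + 0.1) the same counts held except 5 lower in synthesis. Unfiltered log2(FPKM + 1) gave 2 higher in activation, 5 lower in synthesis, 1 higher in peroxidation, 3 higher in coenzyme Q and pyrimidine synthesis, 1 higher in tetrahydrobiopterin, and 3 higher and 4 lower among porin partners. Without 1 library the higher and lower calls were 1 to 3 and 6 to 9 in activation, 2 to 3 and 4 to 5 in remodelling, 1 to 2 and 1 to 3 in synthesis, 1 to 3 and 2 in peroxidation, 0 to 3 and 1 to 3 in ether lipids, 3 to 6 and 5 in coenzyme Q, 3 to 5 and 2 in pyrimidine synthesis, 1 and 0 to 1 in tetrahydrobiopterin, and 4 to 6 and 1 to 2 among porin partners.

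The ACSL6 share differed by 0.205 percentage points when counts replaced FPKM. Without 1 library the differences in share ranged from 1.23 to 1.92 points for ACSL1, −10.7 to −8.44 for ACSL3, 7.15 to 8.79 for ACSL4, −0.209 to 0.0126 for ACSL5, 0.0372 to 0.139 for ACSL6 and 3.16 to 5.15 for VDAC2, and the log2 ratio of ACSL4 to ACSL3 by 0.48 to 0.60.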
